A study of Mus musculus with 12 samples.

Results

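A set of 43 genes of the cell cycle, from the helicase that licenses replication origins to the proteins of cytokinesis, was followed by RNA sequencing in 12 mouse hearts. The genes were taken by symbol from a list of names, and all 43 were found among the 19308 genes of the count table. WT mice and mice with a global CRISPR-Cas9 knockout of *Fabp3* (F3-KO), both labelled C57BL/6, underwent sham surgery or transverse aortic constriction (TAC), in which a ligature narrows the aortic arch and loads the left ventricle with pressure. The mice were 8 weeks old at surgery and each heart was frozen 1 week later, with 3 biological replicates in each of the 4 groups: WT sham, F3-KO sham, WT TAC and F3-KO TAC. Heart tissue with all of its cell types was sequenced, and the knockout was present in every cell of the animal, so that no cell type can be singled out by design.

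The total was 10424334 to 14372011 counts per heart, and levels are given below in CPM, the counts of a gene scaled to a common depth of all hearts. A value of 3 counts corresponds to 0.191 to 0.3 CPM, and levels near it rest on few reads. *Fabp3* itself, the check of the genotype labels, was measured at 2117 to 3064 CPM in the 6 WT hearts and at 1002 to 1143 CPM in the 6 F3-KO hearts, which did not overlap, while transcript was still counted in the knockout. The cardiomyocyte gene *Myh6* stood at 15300 to 33900 CPM in all 12 hearts.

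A cell enters the cycle when E2F transcription factors are released from the retinoblastoma proteins and switch on the genes of DNA replication. The MCM2-7 helicase is then loaded on origins, nucleotide-making enzymes supply the polymerases, and a later wave of genes, driven by B-MYB and FOXM1 once the DREAM repressor complex has gone, provides the cyclins, kinases and spindle proteins of mitosis. Most cardiomyocytes of an adult mouse have left the cycle, and in a pressure-loaded heart fibroblasts, endothelial cells and macrophages are the cells best known to divide. Transcripts of cyclins, kinetochore and spindle proteins are broken down or repressed outside the later phases, which makes them a usual readout of how many cells are dividing.

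The TAC hearts of each genotype did not form 1 group in these genes. Relative to the mean of the WT sham hearts, the 43 genes averaged 2.64, 1.12 and -0.42 on the log2 scale in the WT TAC hearts, taken by replicate number. In the F3-KO TAC hearts they averaged 3.60, 2.38 and -0.36. The 6 sham hearts lay between -0.35 and 0.55. Replicates 1 and 2 of both genotypes therefore lay above every sham heart, and replicate 3 of both lay below all 6. For F3-KO TAC replicate 3 this was by little, at -0.36 against -0.346 in the lowest sham heart. Counted gene by gene, 36, 33 and 1 of the 43 genes exceeded all 6 sham hearts in the WT TAC hearts, against 24.6%, 13.3% and 13.6% of the 14094 genes tested. For the F3-KO TAC hearts the numbers were 42, 41 and 1, against 26.6%, 26.8% and 19.3% of all genes tested. In the replicate 3 hearts 15 genes (WT) and 14 genes (F3-KO) lay below all 6 sham hearts, against 12.1% and 18.1% of all genes tested. Some of these rest on very few reads, as *Bub1* had 0 counts in both replicate 3 hearts and 1 to 4 counts in the sham hearts. In tissue sequenced whole, more dividing cells and more of these transcripts per cell cannot be told apart, nor can fewer cells and less RNA per cell.

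**Figure D1:**
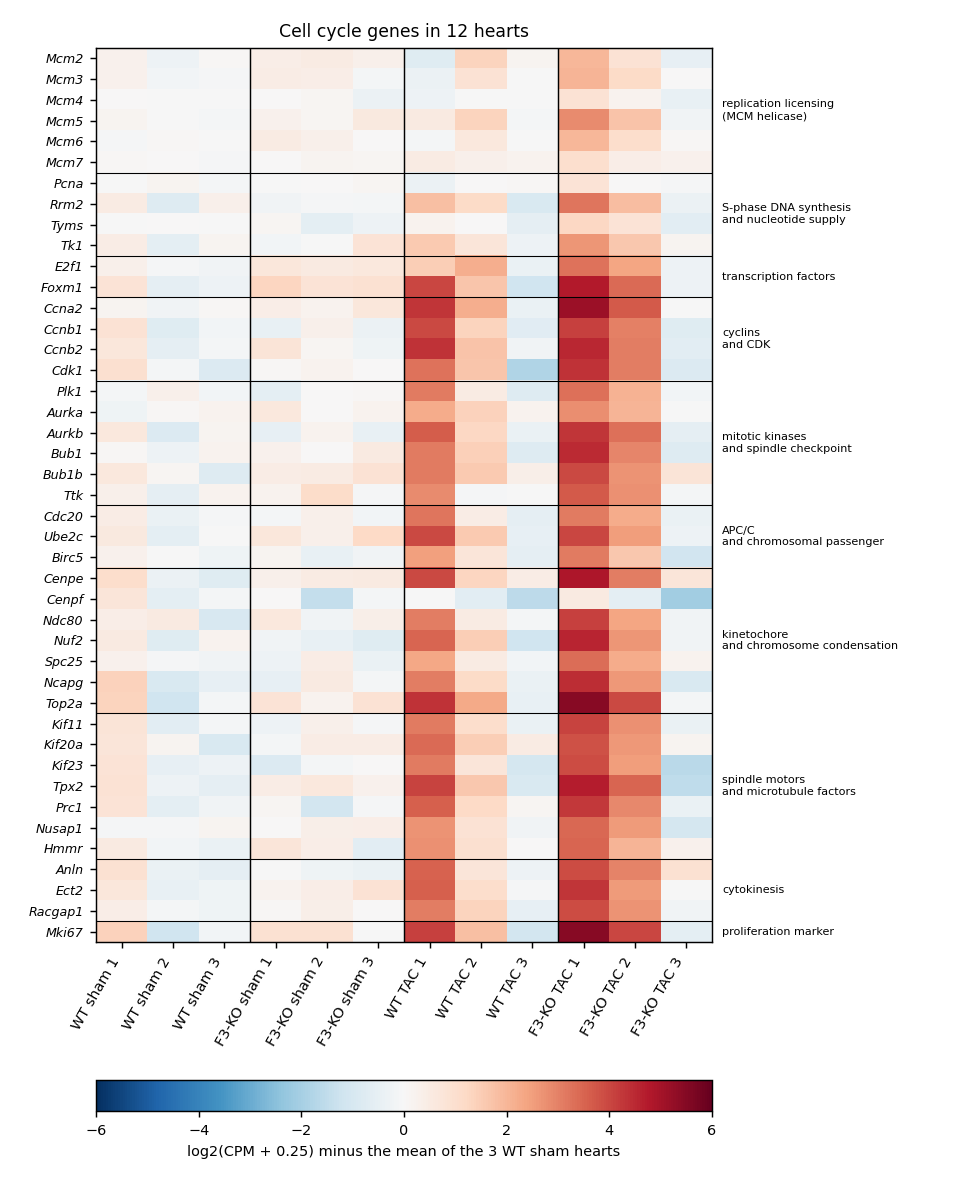
Each row is 1 of the 43 genes, grouped by role, and each column 1 heart; colour gives log2(CPM + 0.25) minus the mean of the 3 WT sham hearts, red for higher and blue for lower. The columns of WT TAC replicates 1 and 2 and of F3-KO TAC replicates 1 and 2 are red over most mitotic rows, while both replicate 3 columns look like the sham columns.

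The spread within the TAC groups was the main feature of these genes. The median over the 43 genes of the standard deviation of log2 CPM within a group was 0.62 for WT and 0.33 for F3-KO hearts after sham, and 1.82 for WT and 2.15 for F3-KO hearts after TAC. Over all genes tested the same 4 medians, in that order, were 0.22, 0.16, 0.25 and 0.24. A standard deviation above 1 was found for 34 of the 43 genes in WT TAC and 38 of the 43 in F3-KO TAC hearts, against 4.75% and 5.92% of all genes tested.

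The promoters of these genes carry short sequences that are linked to the order of their expression in the cycle. RefSeq windows on GRCm38.p6, from 250 bases before to 50 bases after a transcript start, were matched by symbol for 37 of the 43 genes; *Tpx2*, *Ccna2*, *Foxm1*, *Aurkb*, *Kif20a* and *Mcm4* were not matched. Both strands were searched for CCAAT, the box bound by NF-Y, for TTTGAA, the core of the cell cycle homology region that the DREAM and B-MYB complexes bind, and for the E2F forms TTTCCCGC, TTTCGCGC, TTTGCCGC and TTTGGCGC. Stretches of 7 windows are shown, read 5′ to 3′ on the strand of the gene with each found motif in capitals, because they hold the elements by which the mitotic and the replication genes differ: 4 from mitotic or proliferation genes with TTTGAA, 1 from *Cdk1* with all of the elements, and 2 from helicase genes with E2F forms and no TTTGAA.
*Ccnb2* (chr9:70421533-70421733, minus strand): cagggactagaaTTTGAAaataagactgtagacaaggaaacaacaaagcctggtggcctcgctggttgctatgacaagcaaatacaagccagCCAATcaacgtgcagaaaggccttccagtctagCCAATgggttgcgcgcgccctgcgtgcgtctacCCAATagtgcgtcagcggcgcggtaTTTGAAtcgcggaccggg
*Cdc20* (chr4:118437335-118437408, minus strand): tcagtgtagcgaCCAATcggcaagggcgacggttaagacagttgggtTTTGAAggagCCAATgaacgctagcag
*Plk1* (chr7:122159409-122159482, plus strand): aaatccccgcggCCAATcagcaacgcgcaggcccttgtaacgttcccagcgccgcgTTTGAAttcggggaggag
*Mki67* (chr7:135716460-135716579, minus strand): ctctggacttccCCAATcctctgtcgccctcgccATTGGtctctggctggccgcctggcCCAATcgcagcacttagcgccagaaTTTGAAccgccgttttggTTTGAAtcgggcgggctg
*Cdk1* (chr10:69352910-69353132, minus strand): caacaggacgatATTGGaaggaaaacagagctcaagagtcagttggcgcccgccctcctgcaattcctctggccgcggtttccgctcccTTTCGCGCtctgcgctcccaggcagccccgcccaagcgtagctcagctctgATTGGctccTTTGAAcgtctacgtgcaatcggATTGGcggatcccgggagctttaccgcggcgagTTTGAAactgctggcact
*Mcm5* (chr8:75109344-75109531, plus strand): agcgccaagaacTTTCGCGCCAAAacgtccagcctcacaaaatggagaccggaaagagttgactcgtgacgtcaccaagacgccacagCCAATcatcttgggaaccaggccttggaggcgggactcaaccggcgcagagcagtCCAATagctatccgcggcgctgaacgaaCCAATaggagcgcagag
*Mcm6* (chr1:128359703-128359827, minus strand): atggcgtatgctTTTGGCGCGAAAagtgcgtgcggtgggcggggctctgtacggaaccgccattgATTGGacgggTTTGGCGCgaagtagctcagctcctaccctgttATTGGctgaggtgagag
In *Cdc20* TTTGAA began at position -18 from the start, between CCAAT boxes at -53 and -8, and in *Ccnb2* it began at base 5 after the start, downstream of CCAAT boxes at -87, -54 and -21. *Plk1* had its TTTGAA at base 31 after the start. In *Mcm5* and *Mcm6* E2F forms on opposite strands overlapped, so that the capitals run together there.

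Over the matched genes, TTTGAA was found for 22 of 37 (59.5%), against 20.2% of the 27025 genes with a window and 14.5% of the 10617 tested genes with a window. CCAAT was found for 29 of 37 (78.4%), against 41.1% and 42.9%. An E2F form was found for 6 of 37 (16.2%), against 2.6% and 4.52%. The elements divided by role: of 26 matched mitotic genes 20 (76.9%) held TTTGAA, each of them from 50 bases before to 50 after a start, and 2 (7.69%), *Cdk1* and *Ncapg*, held an E2F form. Of 9 matched replication genes 1 (11.1%), *Mcm2*, held TTTGAA and 4 (44.4%), *Mcm3*, *Mcm5*, *Mcm6* and *Mcm7*, an E2F form. CCAAT did not divide them, at 80.8% of the mitotic and 77.8% of the replication genes. These are matches of letters in a window and were not tested for binding in these hearts. The 37 genes had 40 windows, and for 32 of these a stretch after the start was found in an annotated transcript of the gene. In the other windows positions from the start are less certain.

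In the 6 genes of the MCM helicase, which unwinds DNA ahead of the fork, the differences between hearts were small beside those of the mitotic genes, and F3-KO TAC replicate 1 stood highest in each. *Mcm5* was measured, in replicates 1, 2 and 3 of each group, at 3.01, 2.66 and 2.45 CPM in WT sham, 3.24, 2.94 and 4.12 CPM in F3-KO sham, 4, 7.13 and 2.5 CPM in WT TAC and 20.7, 9.31 and 2.31 CPM in F3-KO TAC hearts. F3-KO TAC replicates 1 and 2 and WT TAC replicate 2 lay above all sham hearts, and both replicate 3 hearts lay among or below them. *Mcm6* was found at 9.23, 10.4 and 9.65 CPM in WT sham, 13.8, 12 and 9.9 CPM in F3-KO sham, 9.1, 15.5 and 9.7 CPM in WT TAC and 39.2, 20.6 and 10.1 CPM in F3-KO TAC hearts, again with F3-KO TAC replicates 1 and 2 and WT TAC replicate 2 on top, and WT TAC replicate 1 below the sham hearts. For *Mcm2* the values were 8.16, 5.5 and 7.28 CPM in WT sham, 9.15, 9.77 and 8.43 CPM in F3-KO sham, 4, 17.7 and 7.8 CPM in WT TAC and 27.9, 12.7 and 4.87 CPM in F3-KO TAC hearts. WT TAC replicate 1 held the lowest of the 12 values of *Mcm2* and WT TAC replicate 2 came after F3-KO TAC replicate 1 alone.

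*Mcm7*, whose gene model overlaps that of *Ap4m1*, varied little, with 10.1 to 12.1 CPM in the sham hearts and 12.5 to 21.6 CPM in the 6 TAC hearts. TAC and sham hearts did not overlap in *Mcm7*, and its log2 fold change, as the mean of both genotypes, was 0.42 ± 0.13 (SE, edgeR quasi-likelihood adjusted p = 0.148). The same difference was 1.20 ± 0.43 for *Mcm5* (adjusted p = 0.185) and 0.60 ± 0.27 for *Mcm6* (adjusted p = 0.273). *Mcm3* and *Mcm4* differed by 0.65 ± 0.32 and 0.13 ± 0.19.

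Among the genes of DNA synthesis and nucleotide supply, *Rrm2*, the S-phase subunit of ribonucleotide reductase, was found at 2.82, 1.01 and 2.45 CPM in WT sham, 1.66, 1.82 and 1.74 CPM in F3-KO sham, 7.3, 4.67 and 0.9 CPM in WT TAC and 20.3, 7.72 and 1.48 CPM in F3-KO TAC hearts. The replicate 1 and 2 TAC hearts of both genotypes lay above the sham hearts, and WT TAC replicate 3 below them. Its log2 fold change was 1.04 ± 0.82 in WT and 2.50 ± 0.83 in F3-KO hearts (SE, edgeR adjusted p = 0.857 and 0.188). *Tk1*, the salvage thymidine kinase, differed by 0.89 ± 0.66 and 1.65 ± 0.65, and *Tyms*, thymidylate synthase, by -0.08 ± 0.40 and 0.91 ± 0.40. *Pcna*, the sliding clamp of the polymerases, was measured at 36.3, 40.5 and 33.1 CPM in WT sham, 36.5, 37.4 and 39.5 CPM in F3-KO sham, 28.8, 37.1 and 38.6 CPM in WT TAC and 65.3, 37.5 and 34.6 CPM in F3-KO TAC hearts. Only F3-KO TAC replicate 1 stood apart in *Pcna*, WT TAC replicate 1 was the lowest heart, and the mean difference of 0.10 ± 0.15 was within its error. *Pcna* and *Tyms* have annotated pseudogenes, and reads shared with these copies make both levels uncertain.

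Of the transcription factors, *E2f1*, which drives replication genes, was found at 1.26, 0.917 and 0.818 CPM in WT sham, 1.75, 1.56 and 1.65 CPM in F3-KO sham, 3.22, 5.28 and 0.7 CPM in WT TAC and 11.6, 6.19 and 0.742 CPM in F3-KO TAC hearts. WT TAC replicate 2 lay above WT TAC replicate 1 in *E2f1*, but their exact 95% Poisson intervals, 4.03 to 6.80 and 2.31 to 4.36 CPM, overlapped. *Foxm1*, which drives mitotic genes, was found at 1.55, 0.458 and 0.573 CPM in WT sham, 2.25, 1.56 and 1.65 CPM in F3-KO sham, 16.3, 2.99 and 0.2 CPM in WT TAC and 27.2, 10.6 and 0.577 CPM in F3-KO TAC hearts, and here WT TAC replicate 1 was the higher of the pair. In both genes the replicate 3 hearts lay within or below the sham range. As the mean of both genotypes the log2 fold change was 1.76 ± 0.57 for *E2f1* and 2.87 ± 0.89 for *Foxm1* (SE, edgeR adjusted p = 0.158 and 0.145). The gene models of *E2f1* and *Necab3* overlap, as do those of *Foxm1* and *Tex52*, and the strand setting of the counting is not given in the sources used here.

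The cyclins and their kinase showed some of the widest ranges. *Ccna2*, the cyclin of S phase and G2, was measured at 1.17, 0.825 and 1.06 CPM in WT sham, 1.41, 1.21 and 1.74 CPM in F3-KO sham, 24.3, 5.46 and 0.7 CPM in WT TAC and 43.3, 15.9 and 0.99 CPM in F3-KO TAC hearts. Replicates 1 and 2 of both TAC groups lay above all 6 sham hearts, and both replicate 3 hearts lay within or below the sham range. *Ccnb1*, the cyclin that brings cells into mitosis, was found at 0.777, 0.0917 and 0.245 CPM in WT sham, 0.166, 0.432 and 0.183 CPM in F3-KO sham, 8.39, 1.14 and 0.1 CPM in WT TAC and 9.26, 4.27 and 0.0825 CPM in F3-KO TAC hearts, and the values under 0.3 CPM in the sham and replicate 3 hearts rest on 3 counts or fewer. *Cdk1*, the kinase partner of these cyclins, stood at 1.46, 0.55 and 0.245 CPM in WT sham, 0.665, 0.778 and 0.641 CPM in F3-KO sham, 8.16, 2.55 and 0 CPM in WT TAC and 17.7, 7.21 and 0.247 CPM in F3-KO TAC hearts, with no count in WT TAC replicate 3. *Ccnb2* gave the same order of the 4 highest hearts, from 14.3 CPM in F3-KO TAC replicate 1 down to 0.165 CPM in F3-KO TAC replicate 3. TAC over sham, as the mean of both genotypes, was 3.55 ± 0.86 for *Ccna2*, 3.60 ± 1.03 for *Ccnb1*, 3.58 ± 0.97 for *Ccnb2* and 2.93 ± 0.94 for *Cdk1* on the log2 scale (SE, edgeR adjusted p = 0.104, 0.128, 0.114 and 0.156). *Ccnb1* and *Ccnb2* have annotated pseudogenes, and *Ccna2* overlaps *Exosc9*.

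*Aurkb*, the kinase of the chromosomal passenger complex that corrects faulty spindle attachments, was found at 0.68, 0.0917 and 0.409 CPM in WT sham, 0.166, 0.432 and 0.183 CPM in F3-KO sham, 7.14, 1.14 and 0.2 CPM in WT TAC and 11.2, 5.55 and 0.165 CPM in F3-KO TAC hearts. *Bub1b*, which encodes the checkpoint protein BUBR1, stood at 1.26, 0.825 and 0.327 CPM in WT sham, 1.08, 1.12 and 1.56 CPM in F3-KO sham, 8.32, 2.64 and 1 CPM in WT TAC and 14.9, 6.19 and 1.4 CPM in F3-KO TAC hearts. In both genes replicates 1 and 2 of the TAC groups lay above the sham hearts and replicate 3 did not. *Aurka*, the kinase of the spindle poles, ranged from 0.583 to 1.33 CPM in sham and from 0.742 to 6.83 CPM in TAC hearts. The mean log2 difference was 3.61 ± 0.96 for *Aurkb*, 2.45 ± 0.61 for *Bub1b* and 1.83 ± 0.51 for *Aurka* (SE, edgeR adjusted p = 0.11, 0.105 and 0.122). The remaining kinases, *Plk1*, *Bub1* and *Ttk*, gave 2.44 ± 0.73, 3.43 ± 1.05 and 2.87 ± 1.00, the last 2 from under 10 counts in every sham heart.

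*Cdc20*, the activator that directs the anaphase-promoting complex to securin and cyclin B, was measured at 1.85, 0.917 and 1.23 CPM in WT sham, 1.16, 1.64 and 1.1 CPM in F3-KO sham, 14.1, 1.85 and 0.8 CPM in WT TAC and 12.9, 6.89 and 0.907 CPM in F3-KO TAC hearts. It was the 1 gene of the 43 with its highest value in WT TAC replicate 1. *Ube2c*, the ubiquitin-conjugating enzyme of that complex, stood at 1.75, 0.642 and 1.06 CPM in WT sham, 1.91, 1.38 and 2.75 CPM in F3-KO sham, 20.1, 3.7 and 0.7 CPM in WT TAC and 20.8, 7.34 and 0.825 CPM in F3-KO TAC hearts, and WT TAC replicate 1 and F3-KO TAC replicate 1 were nearly level. *Birc5*, or survivin, a subunit of the chromosomal passenger complex, ranged from 0.951 to 1.75 CPM in sham and from 0.495 to 14 CPM in TAC hearts. Mean log2 differences of TAC over sham were 2.24 ± 0.70, 2.55 ± 0.78 and 1.95 ± 0.67 for these 3 genes (SE, edgeR adjusted p = 0.152, 0.145 and 0.175).

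*Top2a*, the topoisomerase that untangles sister chromatids, was found at 3.3, 0.367 and 1.06 CPM in WT sham, 2.25, 1.38 and 2.38 CPM in F3-KO sham, 28.4, 6.52 and 0.8 CPM in WT TAC and 62.5, 21.7 and 1.07 CPM in F3-KO TAC hearts. F3-KO TAC replicate 1 was highest in *Top2a*, and both replicate 3 hearts lay within the sham range. *Nuf2*, a subunit of the NDC80 complex that grips microtubules at the kinetochore, was found at 0.583, 0.0917 and 0.409 CPM in WT sham, 0.249, 0.173 and 0.0916 CPM in F3-KO sham, 6.12, 1.32 and 0 CPM in WT TAC and 13.2, 3.38 and 0.247 CPM in F3-KO TAC hearts, which in the sham and replicate 3 hearts is 6 counts or fewer. *Cenpe*, the kinesin that brings chromosomes to the spindle equator, stood at 0.874, 0.183 and 0.0818 CPM in WT sham, 0.416, 0.519 and 0.55 CPM in F3-KO sham, 8.24, 1.06 and 0.5 CPM in WT TAC and 15.3, 4.27 and 0.66 CPM in F3-KO TAC hearts. Mean log2 differences were 3.38 ± 0.91 for *Top2a*, 3.85 ± 1.04 for *Nuf2* and 3.44 ± 0.88 for *Cenpe* (SE, edgeR adjusted p = 0.113, 0.113 and 0.105). For *Ndc80*, *Spc25* and the condensin subunit gene *Ncapg* they were 2.86 ± 0.94, 2.19 ± 0.61 and 3.13 ± 1.11.

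*Cenpf*, a large kinetochore protein, was the exception. It was measured at 23.4, 9.35 and 13.1 CPM in WT sham, 14.3, 5.19 and 12.9 CPM in F3-KO sham, 14.1, 9.16 and 4.6 CPM in WT TAC and 20.7, 9.38 and 3.13 CPM in F3-KO TAC hearts, so that its highest value was in WT sham replicate 1 and its lowest in F3-KO TAC replicate 3. Both replicate 3 TAC hearts lay below all 6 sham hearts and the other 4 TAC hearts within the sham range, and the log2 fold change was -0.71 ± 0.61 in WT and 0.04 ± 0.61 in F3-KO hearts (SE, edgeR adjusted p = 0.869 and 0.984). Its promoter window held TTTGAA at base 3 after the start, and it is 1 of the 20 mitotic genes counted above with that match.

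Of the spindle genes, *Prc1*, which bundles the midzone microtubules, was found at 3.59, 1.19 and 1.64 CPM in WT sham, 2.16, 0.778 and 1.83 CPM in F3-KO sham, 26, 4.76 and 2.1 CPM in WT TAC and 40.9, 16.1 and 1.4 CPM in F3-KO TAC hearts. *Kif20a*, the midzone kinesin, ranged from 0.573 to 2.33 CPM in sham and from 1.48 to 21.7 CPM in TAC hearts, and *Kif11*, the kinesin that drives the spindle poles apart, from 0.733 to 2.33 and from 0.900 to 24.7 CPM. Their mean log2 differences were 2.99 ± 0.77, 2.55 ± 0.65 and 2.62 ± 0.74 (SE, edgeR adjusted p = 0.105, 0.105 and 0.125). For *Tpx2*, *Kif23*, *Nusap1* and *Hmmr* the differences were 3.14 ± 0.94, 2.59 ± 0.85, 2.08 ± 0.66 and 2.07 ± 0.60.

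The 3 cytokinesis genes had the same hearts on top, F3-KO TAC replicate 1, then WT TAC replicate 1, then F3-KO TAC replicate 2. *Anln*, the scaffold protein of the cleavage furrow, was found at 2.91, 1.01 and 0.9 CPM in WT sham, 1.41, 1.12 and 1.01 CPM in F3-KO sham, 18.8, 2.47 and 1.1 CPM in WT TAC and 24.9, 13 and 2.89 CPM in F3-KO TAC hearts. F3-KO TAC replicate 3 stood above 5 of the 6 sham hearts in *Anln*, but at 0.33 CPM in *Ect2* and 1.4 CPM in *Racgap1*, within sham ranges of 0.183 to 0.825 and 1.31 to 2.23 CPM. The mean log2 difference of TAC over sham was 2.88 ± 0.71 for *Anln*, 2.97 ± 0.86 for *Ect2*, the exchange factor that activates RhoA, and 2.50 ± 0.68 for *Racgap1*, its centralspindlin partner (SE, edgeR adjusted p = 0.104, 0.131 and 0.114).

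*Mki67*, which encodes the Ki-67 protein used in histology to mark cycling cells, was measured at 5.54, 0.733 and 1.72 CPM in WT sham, 3.99, 3.98 and 1.92 CPM in F3-KO sham, 38.5, 7.49 and 0.8 CPM in WT TAC and 99.9, 35.2 and 1.24 CPM in F3-KO TAC hearts. F3-KO TAC replicate 1 was the highest heart, WT TAC replicate 1 and F3-KO TAC replicate 2 were close to each other, and WT TAC replicate 2 was not far above WT sham replicate 1. Both replicate 3 hearts lay between the lowest and the second lowest WT sham heart. The log2 fold change was 2.58 ± 1.34 in WT and 3.77 ± 1.32 in F3-KO hearts (SE, edgeR adjusted p = 0.794 and 0.202).

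With all 12 hearts in the edgeR fit, none of the 43 genes passed an adjusted p of 0.05 in any comparison of TAC with sham, against a background of 0% of all genes tested in WT hearts, 0% in F3-KO hearts and 0.078% for the mean of both genotypes. The lowest adjusted p among the 43 was 0.782, 0.178 and 0.104 in the 3 comparisons. At an unadjusted p under 0.05, 14 genes were higher after TAC in WT hearts (background 3.68%), 38 in F3-KO hearts (background 10.6%) and 37 for the mean of both genotypes (background 11.3%). None of the 43 was lower, whereas 367, 912 and 919 of the 14094 genes tested were lower in these 3 comparisons. DESeq2 called 0 in WT hearts (background 0.12%), 9 in F3-KO hearts (background 1.9%) and 26 for the mean of both genotypes (background 3.07%), all higher. The median log2 fold change of the 43 was 2.10 in WT and 2.81 in F3-KO hearts and 2.55 for the mean of both genotypes, beside 0, 0.02 and 0.004 over all genes tested. The 2 TAC against sham comparisons used different hearts, and the mean of both genotypes used all of them. All 43 passed the filter on low counts, but 12 had fewer than 3 sham hearts with 10 counts, so that they entered the fit through TAC hearts. The 12 genes with at least 10 counts in every heart, of which 9 were replication genes, had medians of 0.31, 0.95 and 0.61.

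**Figure D2:**
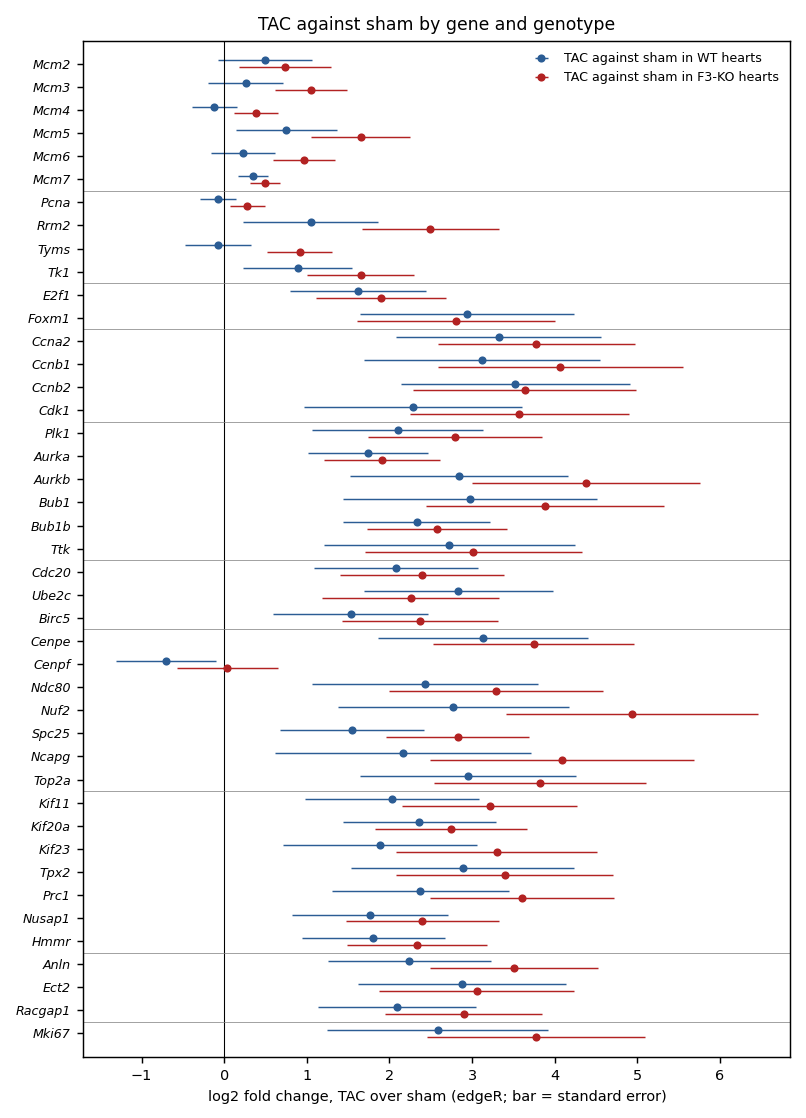
Points give the edgeR log2 fold change of TAC over sham for each of the 43 genes in WT (blue) and F3-KO (red) hearts, and bars its standard error, with 3 hearts in each group. Replication genes at the top lie from near 0 up to 2.50 for *Rrm2* and most mitotic genes between 1.5 and 5, with wide bars, while *Cenpf* lies near or below 0.

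The edgeR calls at an adjusted p of 0.05 turned on a single heart. Without F3-KO TAC replicate 3, 26 of the 43 genes passed an adjusted p of 0.05 in F3-KO hearts (edgeR, background 3.65%), and 36 for the mean of both genotypes (background 4.36%), all higher after TAC. Without any other single heart, none passed in any of these comparisons. In WT hearts, leaving out WT TAC replicate 1 took the median from 2.10 to 0.68 and the genes at an unadjusted p under 0.05 from 14 to 0 (background 1.88%), while leaving out WT TAC replicate 3 took them to 27 (background 5.25%) with a median of 2.62. The count was also 0 without WT sham replicate 2 or 3 (background 5.07% and 2.31%), where the medians were 2 and 1.9. Without WT sham replicate 1 it was 10 (background 2.61%) with a median of 2.59, and without WT TAC replicate 2 it was 18 (background 4.55%) with a median of 2.48. In F3-KO hearts, leaving out F3-KO TAC replicate 1 took the median from 2.81 to 1.73 and the count from 38 to 6 (background 7.43%), and leaving out an F3-KO sham heart took the count to 21, 21 and 20 (background 7.85%, 8.42% and 6.19%, by replicate number). Without F3-KO TAC replicate 2 the count was 34 (background 6.26%) and the median 2.9.

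**Figure D3:**
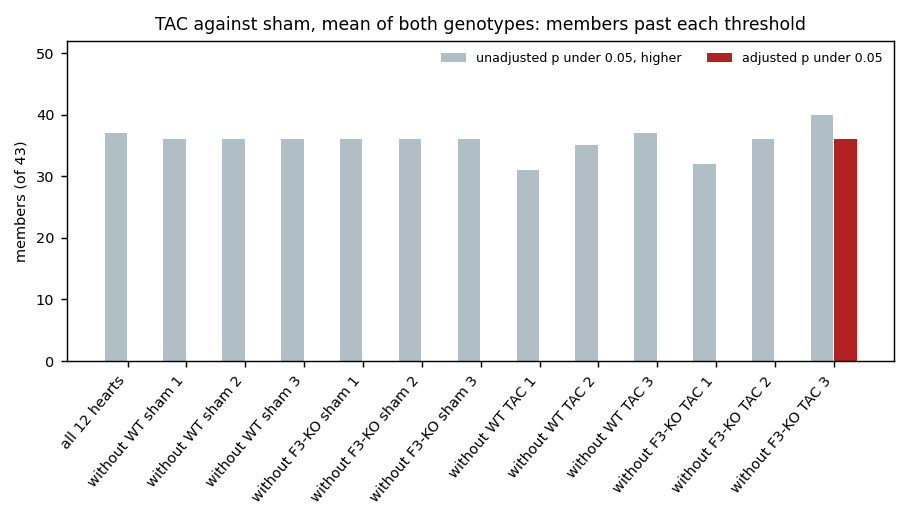
Bars count, of the 43 genes, those past an unadjusted (grey) and an adjusted (red) edgeR p of 0.05 for TAC against sham as the mean of both genotypes, with all 12 hearts and with each heart left out. The grey bars stay between 31 and 40, in fits where 7.7% to 14.3% of all genes tested were higher at that threshold, and a red bar, of 36 genes, appears without F3-KO TAC replicate 3 alone.

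Replication and mitotic genes did not rank the first 2 WT TAC hearts alike. The 10 replication genes (the 6 MCM genes, *Pcna*, *Rrm2*, *Tyms* and *Tk1*) averaged 0.28 in WT TAC replicate 1 and 0.65 in WT TAC replicate 2 on the log2 scale relative to WT sham, while the 30 mitotic genes (cyclins, kinases, kinetochore, spindle and cytokinesis genes) averaged 3.36 and 1.19. Within the replication genes the 6 MCM genes averaged -0.08 and 0.75 in these hearts, whereas the 4 genes of DNA synthesis and nucleotide supply averaged 0.83 and 0.50. In F3-KO TAC replicates 1 and 2 the replication genes averaged 1.88 and 0.99 and the mitotic genes 4.08 and 2.75, so that both sets were higher in the same heart. Replicate 3 hearts stood at -0.15 and -0.46 (WT) and -0.17 and -0.42 (F3-KO).

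Gene by gene, all 30 mitotic genes were higher in WT TAC replicate 1 than in WT TAC replicate 2, and for 29 of them, all but *Aurka*, the exact 95% Poisson intervals of the 2 hearts were apart. Of the 10 replication genes, 6 were higher in replicate 2, and for 5 of these, *Mcm2*, *Mcm3*, *Mcm5*, *Mcm6* and *Pcna*, the intervals were apart. *Mcm2* stood at 4 CPM (2.98 to 5.26) in replicate 1 and 17.7 CPM (15.3 to 20.3) in replicate 2, and *Ccnb1* at 8.39 CPM (6.88 to 10.1) and 1.14 CPM (0.610 to 1.96). *Tk1* was the 1 replication gene with intervals apart in the other direction, at 4.94 CPM (3.80 to 6.32) and 2.64 CPM (1.78 to 3.77). These intervals cover counting error only and compare 2 hearts, not conditions. How many of all genes tested had intervals apart between these hearts was not counted, so the counts have no background. Over all genes tested, WT TAC replicate 1 lay above all 6 sham hearts in 24.6% and below them in 23.5%. For WT TAC replicate 2 the shares were 13.3% and 14.2%. F3-KO TAC replicate 1 was the highest of the 12 hearts in 41 of the 43 genes, and in 31 of these the second highest was WT TAC replicate 1. The share of all genes tested that were highest in F3-KO TAC replicate 1 was not counted.

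**Figure D4:**
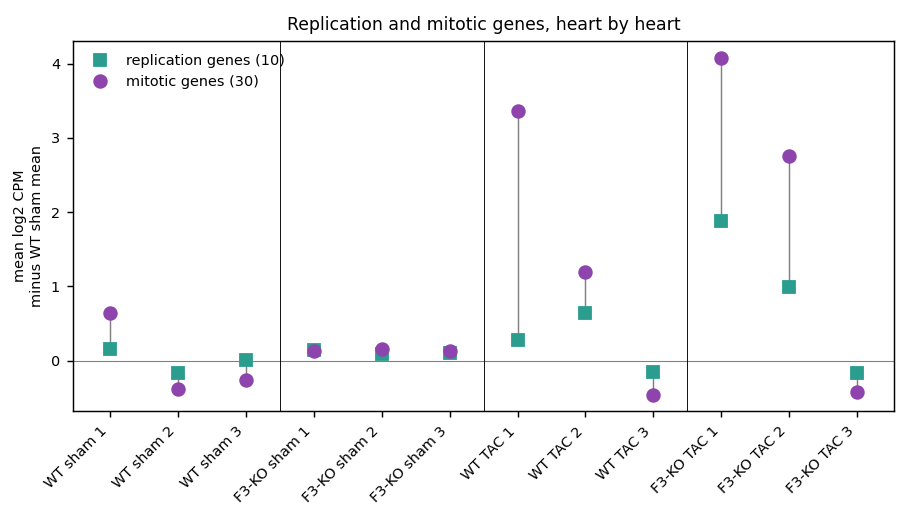
Squares give the mean of the 10 replication genes and circles that of the 30 mitotic genes in each heart, as log2 CPM (prior count 2) minus the WT sham mean. The circle lies 3.08 above the square in WT TAC replicate 1 but 0.55 above it in WT TAC replicate 2, and in the replicate 3 and sham hearts both lie between -0.46 and 0.64.

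Between genotypes, no gene of the set differed by more than its standard error after sham surgery. That error rests on 1 spread per gene shared by the 4 groups, and these genes spread far more after TAC than after sham. Small differences between sham hearts could therefore be missed. With the sham hearts alone in the fit 30 of the 43 genes were tested, and 0 had an unadjusted p under 0.05 by edgeR. In sham hearts 0 of the 43 genes passed an adjusted p of 0.05 (edgeR, background 0.106%), 0 had an unadjusted p under 0.05 (background 2.81% for higher in F3-KO), and DESeq2 and limma-trend called 0. The median log2 difference of F3-KO from WT was 0.24, with 26 genes higher and 17 lower. After TAC all 43 genes had a higher fitted level in F3-KO, with a median log2 difference of 0.96 beside 0.02 over all genes tested. None passed an adjusted p of 0.05 (edgeR, background 0.078%, with DESeq2 and limma-trend calling 0), and 2 genes, *Mcm3* and *Mcm6*, had an unadjusted p under 0.05 (background 5.84%). *Mcm6* differed by 1.03 ± 0.38 and *Mcm3* by 1.05 ± 0.44 (SE, edgeR adjusted p = 0.472 and 0.474), whereas *Mki67* differed by 1.53 ± 1.16, *Top2a* by 1.24 ± 1.09 and *Ccnb1* by 0.48 ± 1.17, with errors close to or above the differences in the last 2.

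Single hearts set that difference. Its median was -0.08 when F3-KO TAC replicate 1 was left out, and 2.49 when it was WT TAC replicate 1, with 22 genes at an unadjusted p under 0.05 (background 8.43%). Without F3-KO TAC replicate 3 the median was 1.43 and 13 genes passed that threshold (background 10.4%). Without WT TAC replicate 2 or 3 the median was 0.66 and 0.48. Leaving out F3-KO TAC replicate 2 changed it little, to 1.0 from 0.96 with all hearts. The genotype effect after TAC minus that after sham had a median of 0.74, and 0 genes passed an adjusted p of 0.05 (edgeR, background 0%) or an unadjusted p of 0.05 (background 2.31%), with DESeq2 and limma-trend calling 0. Leaving out F3-KO TAC replicate 1 gave a median of -0.23, and leaving out WT TAC replicate 1 gave 2.17.

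Other genes of the cycle, listed by function, were read beside the set. In 34 further mitotic genes the median log2 fold change of TAC over sham, as the mean of both genotypes, was 2.63, and 30 were higher at an unadjusted p under 0.05, against 11.3% of all genes tested, with none past an adjusted p of 0.05 in edgeR. Some of the 34, *Cks2*, *Cdca5* and *Dlgap5* among them, had so few reads in sham hearts that they entered the fit through TAC hearts. *Cenph* and *Cenpk*, of the same list, had too few counts to be tested. The list is therefore no independent check of the set. *Cks2*, a subunit of CDK1 complexes, was measured at 0.194, 0.183 and 0.245 CPM in WT sham, 0.333, 0.346 and 0.183 CPM in F3-KO sham, 5.81, 0.969 and 0.5 CPM in WT TAC and 7.44, 5.04 and 0.33 CPM in F3-KO TAC hearts, with the replicate 3 hearts again near the sham hearts. *Pttg1*, securin, went the other way, at 121, 134 and 126 CPM in WT sham, 111, 101 and 113 CPM in F3-KO sham, 77.7, 105 and 126 CPM in WT TAC and 66.1, 64.8 and 80.4 CPM in F3-KO TAC hearts. Its log2 difference was -0.46 ± 0.11 (SE, edgeR adjusted p = 0.104), and F3-KO TAC and F3-KO sham hearts did not overlap. Of 25 genes of origin firing and the replication fork 7 were higher at an unadjusted p under 0.05 (background 11.3%), with a median of 0.44.

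Upstream of these, the differences were smaller. Of 17 genes of the Rb family, E2F factors and the DREAM complex 7 were higher at an unadjusted p under 0.05 (background 11.3%), with a median of 0.19, and *Mybl2*, which encodes B-MYB, differed most, at 0.874, 0.275 and 0.164 CPM in WT sham, 0.249, 0.346 and 0.0916 CPM in F3-KO sham, 1.88, 1.23 and 0.2 CPM in WT TAC and 6.53, 1.98 and 0.66 CPM in F3-KO TAC hearts and a mean log2 difference of 2.52 ± 0.69 (SE, edgeR adjusted p = 0.118). The 8 G1 cyclins and their kinases had a median of 0.19 and none at an unadjusted p under 0.05 by edgeR. *Ccnd1*, cyclin D1, stood at 60.2, 44.6 and 63.7 CPM in WT sham, 87.9, 75.4 and 73.8 CPM in F3-KO sham, 71, 145 and 51.5 CPM in WT TAC and 186, 110 and 40.7 CPM in F3-KO TAC hearts, and WT TAC replicate 2 and F3-KO TAC replicates 1 and 2 lay above all sham hearts while WT TAC replicate 1 did not.

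Of the CDK inhibitors, *Cdkn1a*, which encodes p21, was found at 35.6, 84.4 and 30.8 CPM in WT sham, 137, 59.8 and 72.7 CPM in F3-KO sham, 271, 59.9 and 105 CPM in WT TAC and 96.8, 77.4 and 139 CPM in F3-KO TAC hearts, highest in WT TAC replicate 1. Its mean log2 difference was 0.87 ± 0.38 (SE, edgeR adjusted p = 0.257). *Cdkn2c*, p18, was found at 9.62, 11.8 and 9.9 CPM in WT sham, 10.6, 11 and 10.7 CPM in F3-KO sham, 21.2, 10.5 and 10.2 CPM in WT TAC and 22.8, 11.2 and 10.8 CPM in F3-KO TAC hearts, and only the replicate 1 hearts of the TAC groups stood apart, with a mean log2 difference of 0.45 ± 0.23. *Cdkn1c*, p57, had 31.6, 41.2 and 22.7 CPM in WT sham, 20.7, 24.7 and 23.2 CPM in F3-KO sham, 18, 26.2 and 26.9 CPM in WT TAC and 15.3, 12.6 and 21.3 CPM in F3-KO TAC hearts and a difference of -0.45 ± 0.17 (adjusted p = 0.201). *Cdkn1b* and *Cdkn2d* differed by -0.01 ± 0.14 and 0.19 ± 0.12, while *Cdkn2a* and *Cdkn2b* had too few counts to be tested. Among 7 genes of G1 arrest and the p53 response, 1, *Btg2*, was higher at an unadjusted p under 0.05 by edgeR (background 11.3%) and 0 were lower. Its difference was 0.43 ± 0.14 (SE, edgeR adjusted p = 0.167).

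Both TAC hearts at sham level in the cell cycle genes were above all 6 sham hearts in *Nppb*, *Nppa* and *Myh7*. Of these load genes only *Nppb* placed all 6 TAC hearts above the sham hearts. *Nppb*, the gene of B-type natriuretic peptide made by strained cardiomyocytes, was measured at 796, 401 and 548 CPM in WT TAC hearts and at 680, 705 and 563 CPM in F3-KO TAC hearts, each by replicate number. All 6 values lay above the 6 sham hearts, at 99.0 to 306 CPM, and *Nppb* was described after its values were seen. *Nppa*, of atrial natriuretic peptide, stood at 1140, 139 and 572 CPM in WT TAC and 166, 4190 and 984 CPM in F3-KO TAC hearts, against 38.7 to 333 CPM in sham hearts, so that WT TAC replicate 2 and F3-KO TAC replicate 1 lay within the sham range. *Myh7*, the slow myosin heavy chain, was found at 4490, 1250 and 20100 CPM in WT TAC and 189, 8800 and 22300 CPM in F3-KO TAC hearts, against 276 to 9560 CPM in sham hearts. Both replicate 3 hearts were highest in *Myh7* and F3-KO TAC replicate 1 lowest.

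Some markers of other cell types were high in the hearts with high cell cycle genes, and others were not. The summed level of 6 activated fibroblast genes was 490, 234 and 108 CPM in WT TAC hearts and 901, 2120 and 117 CPM in F3-KO TAC hearts, against 99.1 to 197 CPM in sham hearts. *Postn*, periostin of activated fibroblasts, stood at 370, 38 and 22.7 CPM and at 583, 1330 and 39.2 CPM in the same hearts, so that F3-KO TAC replicate 2 led in *Postn* and F3-KO TAC replicate 1 in the cell cycle genes. Of the 234 CPM of WT TAC replicate 2, *Acta2*, which smooth muscle also expresses, gave 178 CPM. Without *Acta2*, a choice made after the values were seen, the list summed to 419, 56.4 and 46.7 CPM in WT TAC and 737, 2040 and 79.9 CPM in F3-KO TAC hearts, against 24.5 to 84.4 CPM in sham hearts, which places WT TAC replicate 2 within the sham range. The 8 general fibroblast genes summed to 3790, 2530 and 2680 CPM in WT TAC and 4540, 7150 and 2900 CPM in F3-KO TAC hearts, against 1600 to 3150 CPM in sham hearts, and did not place WT TAC replicate 2 above replicate 3. The 10 macrophage and monocyte genes summed to 552, 452 and 345 CPM in WT TAC and 756, 611 and 459 CPM in F3-KO TAC hearts, against 193 to 415 CPM in sham hearts, and F3-KO TAC replicate 3 lay above all sham hearts here. The 7 endothelial genes summed to 1400, 1270 and 903 CPM and to 1630, 1300 and 946 CPM, against 1070 to 1490 CPM in sham hearts, with both replicate 3 hearts lowest. At an unadjusted p under 0.05 for the mean of both genotypes 5 of 6 activated fibroblast, 5 of 8 fibroblast, 8 of 10 macrophage and monocyte and 0 of 7 endothelial genes were higher, against 11.3% of all genes tested. At the same threshold 3 of 8 cardiomyocyte and 2 of 6 mural genes were lower, as were 919 of the 14094 genes tested. None of these 6 lists held a gene past an adjusted p of 0.05 by edgeR. The part of these cells in the cell cycle result was not tested.

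**Figure D5:**
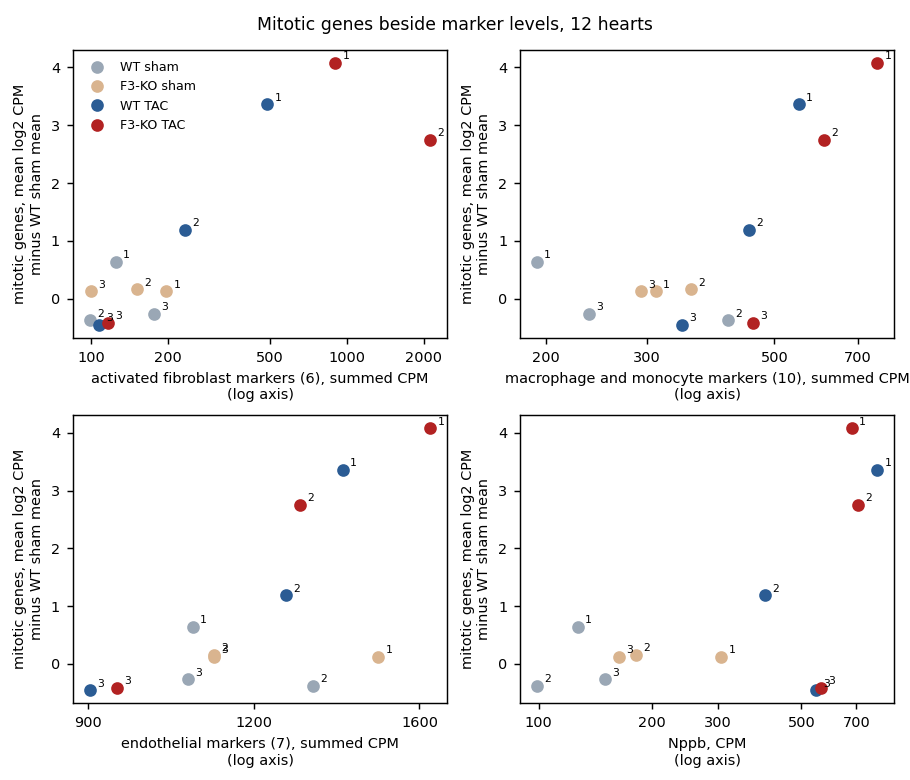
Each point is 1 of the 12 hearts, labelled by replicate number and coloured by group, with the mean of the 30 mitotic genes (log2 CPM minus the WT sham mean) against the level of a marker list or of *Nppb* in CPM on a log axis. Both replicate 3 TAC hearts lie with the sham hearts at the bottom left for activated fibroblast genes, but with the other TAC hearts at 548 and 563 CPM for *Nppb*.

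Genes of T and B cells were near 0. The recombinase genes of developing lymphocytes, *Rag1* and *Rag2*, reached at most 0.0873 and 0.239 CPM in any heart. T cell genes summed to at most 4.53 CPM and B cell genes to at most 2.89 CPM. The 8 red blood cell and erythroblast genes summed to 4380, 2180 and 356 CPM in WT TAC and 1110, 995 and 392 CPM in F3-KO TAC hearts, against 706 to 4540 CPM in sham hearts, lowest in the replicate 3 hearts. Neutrophil genes summed to 8.07 to 42.2 CPM, highest in WT sham replicate 2.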

How the data were processed

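Hearts were assigned to groups and replicate numbers from their titles, and the design text calls the replicates independent biological samples. Total RNA was extracted with Trizol and sequenced on Illumina libraries whose strandedness is not given in the sources used here. The deposited values are estimated counts per gene made by the authors, of which 40.6% were not whole numbers. The submitters' processing notes name HISAT2 2.0.4, STAR 2.3.0, DESeq2 and the builds mm8 and mm9, with no role or order, and the counting tool and annotation are not given in the sources used here.

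The estimated counts were rounded and tested with edgeR 4.0.16 (R 4.3.3): genes were kept by filterByExpr with a minimum count of 10 (14094 of 19308), libraries were scaled by TMM (factors 0.931 to 1.09), and a quasi-likelihood fit of the 4 groups gave 6 contrasts with Benjamini-Hochberg adjustment over all genes tested. The 6 contrasts were TAC against sham in each genotype and as the mean of both, F3-KO against WT after each surgery, and the difference between these genotype effects. CPM are TMM-scaled, except those of the cell type genes, their sums, *Nppa*, *Nppb* and *Myh7*. For these exceptions, counts were divided by the total of each heart alone, without its TMM factor. Means over genes use log2 CPM with a prior count of 2. DESeq2 1.42.0, limma 3.58.1, other filters and scalings, a replicate block and leaving out each heart were alternatives. The fit assumes 1 spread per gene for the 4 groups. Genes named with full statistics were, in each role, up to 3 with the lowest p for the mean of both genotypes, plus *Mki67*, *Top2a*, *Cdk1*, *Ccnb1*, *E2f1* and *Pcna*. From other lists the 4 lowest p and all CDK inhibitors were eligible, and *Mcm2*, *Cenpf*, *Ccnd1*, *Nppa*, *Nppb*, *Myh7*, *Acta2*, *Postn* and *Pttg1* were described after their values were seen. The members and lists were chosen with earlier results of these data known. Scripts were tested on simulated counts. Promoter windows and gene neighbours come from RefSeq on GRCm38.p6, a build other than those of the processing notes, so no read was placed in them. All 43 gene IDs matched RefSeq, where 13 of the genes overlap another protein-coding or long noncoding gene and 5 have an annotated pseudogene. Beside those named with their values, *Aurkb* has such a pseudogene. *Tk1*, *Aurka*, *Cdc20*, *Ncapg*, *Kif20a*, *Prc1*, *Nusap1*, *Anln* and *Ect2* also overlap another gene, and their levels share this uncertainty. The summed level of the thymocyte marker list is not reported here.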

Additional observations from a re-analysis of the deposited data

How the results depend on the processing

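The count of the 43 genes past an adjusted p of 0.05 was 0 in all 6 comparisons with edgeR, with DESeq2 size factors, with no filter or a stricter filter on low counts, with limma-trend and, in the 4 comparisons of 2 groups, with those groups alone in the fit. The stricter filter left 12 of the 43 genes to test, and the fits of 2 groups alone left 30 to 43. With DESeq2's own test it was 9 for TAC against sham in F3-KO hearts and 26 for the mean of both genotypes, and the cause was not tested. With the unadjusted p it was 14 in WT hearts, 38 in F3-KO hearts, 37 for the mean of both genotypes and 2 for F3-KO against WT after TAC. The backgrounds for higher were 3.68%, 10.6%, 11.3% and 5.84%. For TAC against sham, in the same order, limma-trend gave 1, 10 and 18 genes higher at that threshold, with medians of 1.28, 1.85 and 1.54. DESeq2 gave 24, 39 and 38, with medians of 2.1, 2.8 and 2.54. The share of all genes tested at that threshold was not counted for these methods. Leaving out each heart in turn in edgeR gave 0 to 26 genes past an adjusted p of 0.05 in F3-KO hearts and 0 to 36 for the mean of both genotypes, and the highest of each came without F3-KO TAC replicate 3. The other 4 comparisons stayed at 0. For *Pcna* the log2 difference of TAC from sham ranged from -0.0752 to 0.44 in F3-KO hearts and from -0.0788 to 0.182 for the mean of both genotypes, below 0 without F3-KO TAC replicate 1. With a prior count of 0.5 the mean over the genes of F3-KO sham minus WT sham was 0.24 (log2).

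The replicate numbers were not taken as pairs, and the design text calls the replicates independent biological samples. Same-numbered hearts had correlations of their deviations from the group means from -0.14 to 0.36, highest between the replicate 3 TAC hearts. Of 24 best matches, each among 3 hearts, 13 fell on the same number. These were 5 of 6 for TAC against sham in F3-KO hearts, 4 of 6 between the TAC groups and 2 of 6 in each other comparison. What same-numbered hearts share was not tested. With the replicate block the count past an adjusted p of 0.05 was again 0 in all 6 comparisons, and 16, 36 and 36 genes were higher after TAC at an unadjusted p under 0.05 in WT hearts, in F3-KO hearts and for the mean of both genotypes. The share of all genes tested at that threshold was not counted for this fit, so these counts have no background.

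Depth limits the genes at a few counts in sham hearts, 8 of which had under 10 counts in all 6, and 3 hearts a group limit the rest.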
